A study of Oryza sativa with 6 samples.

Results

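Chlorophyll-binding and chloroplast genes were followed in young rice inflorescences of the sro mutant and of wild type. The set holds 5 genes of the 17905 measured. They are CAB2R, RCABP69, OEE3, PORA and CHLD, found by symbol or synonym in the RefSeq gene table and joined by gene number to probe sets that name 1 gene, which gave 6 probe sets of the 57258 tested. They were chosen as a sign of greening tissue, with earlier results of these data known. In sro, transcripts of the antenna genes CAB2R and RCABP69 and of the chlorophyll synthesis gene PORA were lower. The levels of RCABP69 and PORA lay within the range of control probe sets without a target in rice. OEE3 of the oxygen-evolving complex was higher, and CHLD, a subunit of magnesium chelatase, was not called in either direction.

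Chloroplasts collect light with antenna proteins, which bind chlorophyll a and b and are encoded in the nucleus. The captured energy drives photosystem II, whose oxygen-evolving complex splits water on the inner side of the thylakoid membrane. Chlorophyll itself is made from protoporphyrin, into which magnesium chelatase inserts magnesium, and a later step, the reduction of protochlorophyllide, is carried out by the POR enzymes in the light. In Arabidopsis, maize and rice the GLK transcription factors promote the expression of antenna and chlorophyll synthesis genes. In spikelets the lemma and palea are the organs that turn green.

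The data are 6 Affymetrix rice arrays hybridised with RNA from inflorescences 4 to 5 mm long, 3 from wild type of the Japonica variety 9522 and 3 from the sro mutant, all from plants grown in the paddy field with no special treatment. At this length, per the labels, stamens and carpels have started to form in most spikelets. The sources used here do not give the allele of sro, the number of plants behind a sample or how plants were harvested, and SRO itself was not checked, since no table used here names it. The comparison asks whether these transcripts differ with genotype at that length. Values are log2 intensities per probe set, and array medians lay between 5.26 and 5.31. The inflorescence marker probe sets with the highest mean over the 6 arrays were those of OsMADS1, OsMADS18, OsMADS6 and OsMADS5, MADS-box genes of spikelet and floret development, whose wild-type levels were 12.65, 12.40, 12.10 and 12.16 and whose sro levels were 12.73, 12.49, 12.27 and 12.08. These 4 lay well above the level of control probe sets for a fungus in both genotypes, but they were taken as the brightest of 21 markers. None of the 4 was called, while 7 of the 21 were, as described below. FZP and G1L9, also of that list, averaged below the level of the fungal probe sets in both genotypes.

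The test was limma on all 57258 probe sets, with Benjamini-Hochberg adjustment over all of them, and a call means an adjusted p under 0.05. Every adjusted p below is from that fit unless stated otherwise. Of all probe sets, 14.6% were called, 5.59% higher and 9.04% lower in sro. Of the 17905 genes, each by its brightest probe set, 26.6% were called, 7.28% higher and 19.4% lower. Of the 6 member probe sets, 4 were called lower, 1 was called higher and 1 was not called. The values of the genotypes did not overlap in 5 of the 6, as in 34.6% of all probe sets. Since the members were chosen with results known, these counts are a description. As the samples are whole inflorescences, fewer cells of a type and less RNA per cell cannot be told apart in any of the results below.

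CAB2R (LOC4324599, chromosome 1) encodes a chlorophyll a/b-binding protein of the antenna and has 2 probe sets here. On the brighter one, whose name ends in _a_at, the wild-type arrays read 8.54, 8.46 and 8.52 in replicates 1, 2 and 3, and the sro arrays read 7.16, 7.15 and 7.40. Every sro array lay at least 1.06 log2 units below every wild-type array, and the wild-type arrays were closer to each other than the sro arrays were. The mean was 8.51 ± 0.04 (SD, n = 3) in wild type and 7.24 ± 0.14 in sro, a fall of 2.41-fold (log2 change -1.27, SE 0.08, adjusted p = 0.000104). Only 0.285% of all probe sets had a change further down. On the other probe set, whose name ends in _s_at, wild type read 7.36, 7.34 and 7.33 and sro read 6.50, 6.20 and 6.08. This probe set fell too, by 2.12-fold (log2 change -1.08, SE 0.10, adjusted p = 0.000679). The order of the sro arrays was not the same on the 2 probe sets, with replicate 3 highest on the first and lowest on the second. Affymetrix gives the ending _s_at to probe sets whose probes match more than a single transcript, and antenna genes are close copies of each other, so signal from related genes may be included.

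RCABP69 (LOC4343583, chromosome 7), named as a further chlorophyll-binding protein gene, was dim. Its 1 probe set, also ending in _s_at, read 4.81, 4.79 and 5.11 in wild type and 3.99, 3.95 and 3.97 in sro. The groups did not overlap, and the nearest arrays were 0.80 log2 units apart. The 10 probe sets for the fungus Magnaporthe, which have no target in rice, averaged 4.65 ± 0.13 in wild type and 4.69 ± 0.02 in sro and served as the level without target. All 3 sro arrays of RCABP69 lay below that level and all 3 wild-type arrays above it. The fall was called (log2 change -0.93, SE 0.09, adjusted p = 0.000748). As a fold it was at least 1.16, from the wild-type mean of 4.90 ± 0.18 against the mean level without target in sro. That limit rests on the mean of the fungal probe sets alone. The means of single fungal probe sets ran from 3.66 to 5.88, which takes in RCABP69 in both genotypes, so a signal from target is not shown in either.

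RCABP89 (LOC4333359), the remaining measured gene that the antenna list found by name, belongs to the pathway but not to the 5 genes. Antenna genes with only a locus number were not looked at. It read 7.66, 8.29 and 8.21 in wild type and 7.50, 7.47 and 7.33 in sro. Wild type replicate 1 stood apart from the other wild-type arrays and close to sro. RCABP89 fell by 0.62 (SE 0.15, adjusted p = 0.033), a call that was lost without wild type replicate 2 or 3 or any sro array (log2 changes of -0.65 to -0.50, adjusted p from 0.0754 to 0.116).

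**Figure D1:**
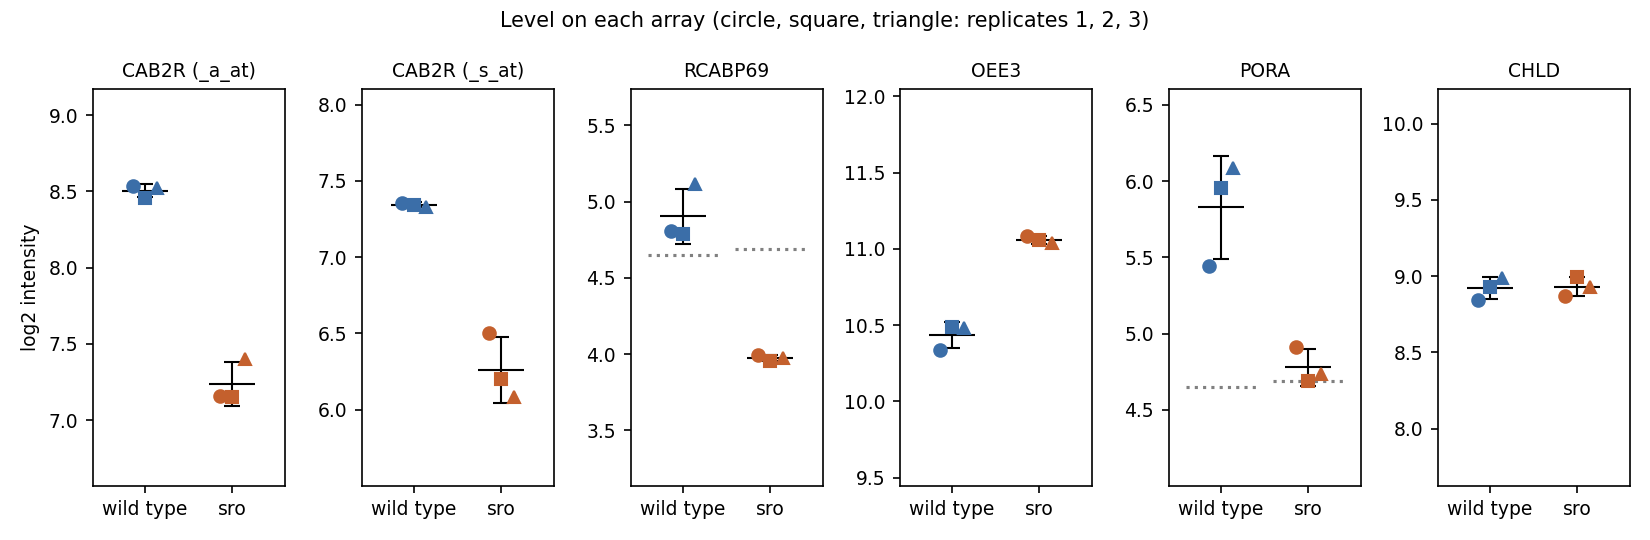
Log2 intensity of each member probe set on the 6 arrays, wild type in blue and sro in orange, with replicates 1, 2 and 3 as circle, square and triangle. Black bars give the mean and SD of 3 arrays, every panel spans the same number of log2 units, and dotted lines give the mean level of the fungal probe sets where it falls in the panel. The sro arrays lie below wild type for CAB2R, RCABP69 and PORA, above it for OEE3, and among it for CHLD.

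OEE3 (LOC4343515, chromosome 7) encodes an extrinsic protein of the oxygen-evolving complex, which stabilises the water-splitting site of photosystem II. It was the member that rose. Wild type read 10.34, 10.49 and 10.48 and sro read 11.09, 11.06 and 11.04. All sro arrays lay above all wild-type arrays with a gap of 0.55 log2 units, and the sro arrays were the tighter group (SD 0.02, against 0.09 in wild type). The rise was 1.54-fold (log2 change 0.62, SE 0.06, adjusted p = 0.000923), or 54.0% above the wild-type level, with a 95% interval of 38.9% to 70.7%. A larger rise was found in 1.15% of all probe sets.

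PORA (LOC4337415, chromosome 4) encodes a protochlorophyllide oxidoreductase, which is known for acting as seedlings leave the dark. Its probe set read 5.45, 5.96 and 6.08 in wild type and 4.91, 4.69 and 4.73 in sro. The groups did not overlap, with a gap of 0.53 log2 units, and wild type replicate 1 was the lowest wild-type array. The mean went from 5.83 ± 0.34 to 4.78 ± 0.12, a fall of 2.07-fold (log2 change -1.05, SE 0.16, adjusted p = 0.00386). In sro PORA was close to the fungal level, with 1 of the 3 arrays below it. Its means in both genotypes lay within the range of single fungal probe set means, 3.66 to 5.88. The adjusted p was 0.0643 in an ordinary linear model with no moderation of the variance, at the same change. PORB (LOC4349004), the other POR gene measured here, had a log2 change of -0.27 (95% interval -0.50 to -0.04) and an adjusted p of 0.11.

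CHLD (LOC4334537, chromosome 3) encodes the D subunit of magnesium chelatase, the enzyme at the entry to the chlorophyll branch. It read 8.85, 8.93 and 8.99 in wild type and 8.87, 8.99 and 8.93 in sro. The arrays of the genotypes were interleaved, and the means were 8.92 ± 0.07 and 8.93 ± 0.06. The log2 change was 0.01 (SE 0.07, adjusted p = 0.947). Its 95% interval ran from -0.14 to 0.16, which is a change of -9.42% to 11.8% of the wild-type level, and the change of every other member lay outside that interval.

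The other chelatase subunits were listed beside CHLD. CHLI (LOC4333259) had a log2 change of -0.26 (adjusted p = 0.109) from a wild-type level of 4.90 near the fungal probe sets. CHLH (LOC4332690), the subunit that binds the porphyrin, had probe sets that disagreed. The brighter one, at 9.30 in wild type, had a change of -0.02 (adjusted p = 0.899), and the dimmer one read 7.42, 7.85 and 7.66 in wild type and 7.13, 7.13 and 7.10 in sro and fell by 0.52 (adjusted p = 0.0125).

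**Figure D2:**
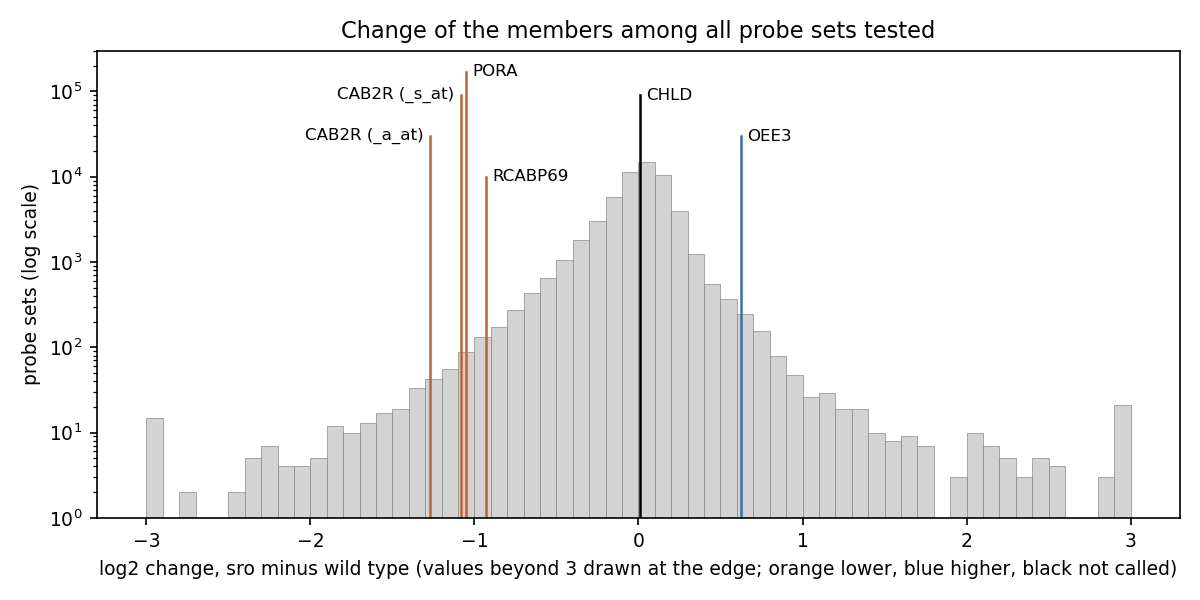
Number of probe sets, on a log scale, by log2 change of sro against wild type for all 57258 probe sets tested, with a line at the change of each member. CAB2R, RCABP69 and PORA lie in the lower tail at -1.27 to -0.93, OEE3 in the upper tail at 0.62, and CHLD at 0.01 near the middle.

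Around these 5 genes, 7 chloroplast and greening lists named 70 further genes. Of these, 40 were measured, each taken by its brightest probe set. Of them 11 fell, 1 rose and 28 were not called, which is 30.0% called, and over all 17905 genes 26.6% were called, 7.28% higher and 19.4% lower. Their median log2 change was -0.02, and that of all genes was -0.06. As a whole the lists were therefore near the background, and the genes that fell are described by role.

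Among the 5 regulators measured, the GLK genes fell and the others were not called, which is 40% called against 26.6% over all genes. OsGLK2 (LOC4326363) read 8.24, 7.99 and 8.31 in wild type and 6.91, 7.07 and 7.23 in sro, and fell by 2.16-fold (log2 change -1.11, SE 0.11, adjusted p = 0.000704). Its remaining probe sets were dimmer, and 2 of these 3 lay below the fungal level. The other one had a change of -0.26 and an adjusted p of 0.054. OsGLK1 (LOC4340977) read 5.76, 6.36 and 6.28 in wild type and 5.26, 5.08 and 5.18 in sro. It fell by 1.94-fold (log2 change -0.96, SE 0.15, adjusted p = 0.00483, and 0.0698 in an ordinary linear model). Its sro mean of 5.18 lay within the range of single fungal probe set means, 3.66 to 5.88, and its wild-type mean of 6.13 above it. The groups did not overlap for either gene. The photoreceptor genes PhyB, PHYA and phyC, which sense red and far-red light, had log2 changes of 0.16, 0.10 and 0.01 and were not called (adjusted p from 0.108 to 0.91).

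Of 32 further photosystem and electron transport genes that the list named, 6 were measured. Of these 6, 3 fell and 3 were not called, which is 50% called against 26.6% over all genes. Their median log2 change was -0.23. LFNR1, the leaf ferredoxin-NADP reductase, fell from 7.35 ± 0.24 to 6.58 ± 0.05 (log2 change -0.77, adjusted p = 0.00371, and 0.056 in an ordinary linear model). PETE (LOC4339833), plastocyanin, fell by 0.54 (adjusted p = 0.00484), and PSB28 (LOC4326537), an assembly factor of photosystem II, fell by 0.34 (adjusted p = 0.00718). The photosystem I subunit genes OsPSAG and PSAH had changes of 0.04 and 0.24 and the Rieske protein gene petC had -0.12, none of them called. OEE3, at 0.62, was the highest of the 7 photosystem and electron transport genes measured from the list, and no other of them rose.

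Of 9 further chlorophyll synthesis genes, 2 fell and 7 were not called, which is 22.2% called against 26.6% over all genes. All 9 changes were below 0 (median -0.10), as was the median of all genes (-0.06). PPOX1 (LOC4327918), protoporphyrinogen oxidase, fell by 0.63 (adjusted p = 0.00269). CAO (LOC4349433), which makes chlorophyll b from chlorophyll a, fell by 0.37 (adjusted p = 0.0178), a call lost without wild type replicate 3 or without sro replicate 1 or 2 (adjusted p from 0.0579 to 0.0657). HEMB, HEMD, GSA and CHLG, of early tetrapyrrole synthesis and the last step of chlorophyll synthesis, had changes of -0.03, -0.09, -0.10 and -0.07.

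In the remaining lists the changes were smaller. None of the 4 chlorophyll breakdown genes was called in the limma fit (2 had an unadjusted p under 0.05, and 0 to 2 were called under the other settings). OsNYC1 and OsNOL, of chlorophyll b reductase, had changes of 0.24 and 0.19 (adjusted p = 0.0874 and 0.0625), SGR had -0.02 and OsRCCR1 0.07. A dimmer OsNOL probe set rose by 0.44 (adjusted p = 0.0144). Of 8 genes found by the carbon fixation list, 2 fell and 6 were not called, which is 25% called against 26.6% over all genes. OsGLN2, plastid glutamine synthetase, fell by 0.28 (adjusted p = 0.0381). The other one that fell was OsGRF4, a growth-regulating factor that the list took in through its name GS2 (log2 change -0.32, adjusted p = 0.0391). Of the 13 other settings, the call was lost in 10 for OsGLN2 and in 8 for OsGRF4. The Rubisco small subunit gene OsrbcS and the Rubisco activase gene rca had changes of 0.17 and 0.10 (adjusted p = 0.246 and 0.544). Further rca probe sets near the fungal level had changes of -0.32 to -0.18, of which that of -0.23 was called (adjusted p = 0.0466). RPE, FBPase and the cytosolic CFBP1 had changes of 0.13, 0.13 and 0.17, and RBCS1 lay below the fungal level in both genotypes. A dimmer CFBP1 probe set went the other way, by -0.20 (adjusted p = 0.128). Dimmer OsrbcS probe sets had changes from -0.31 to 0.21, none of them called (adjusted p from 0.132 to 0.308).

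The last list held 7 genes of plastid biogenesis, gene expression and import, of which 28.6% were called against 26.6% over all genes. V2 (LOC4332674), a plastid guanylate kinase, fell by 0.32 (adjusted p = 0.0146). OsSig2B (LOC4332388), a sigma factor of the plastid RNA polymerase, rose by 0.37 (adjusted p = 0.0256). The call of OsSig2B was lost when any array but wild type replicate 3 was left out (adjusted p up to 0.0833), and that of V2 without sro replicate 1 or 3 (adjusted p = 0.0562 and 0.0551). TOC75, ASL1, wsl8, wsl3 and wsl6, of import and plastid biogenesis, had changes of 0.00, 0.03, 0.04, 0.08 and 0.20 and were not called.

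**Figure D3:**
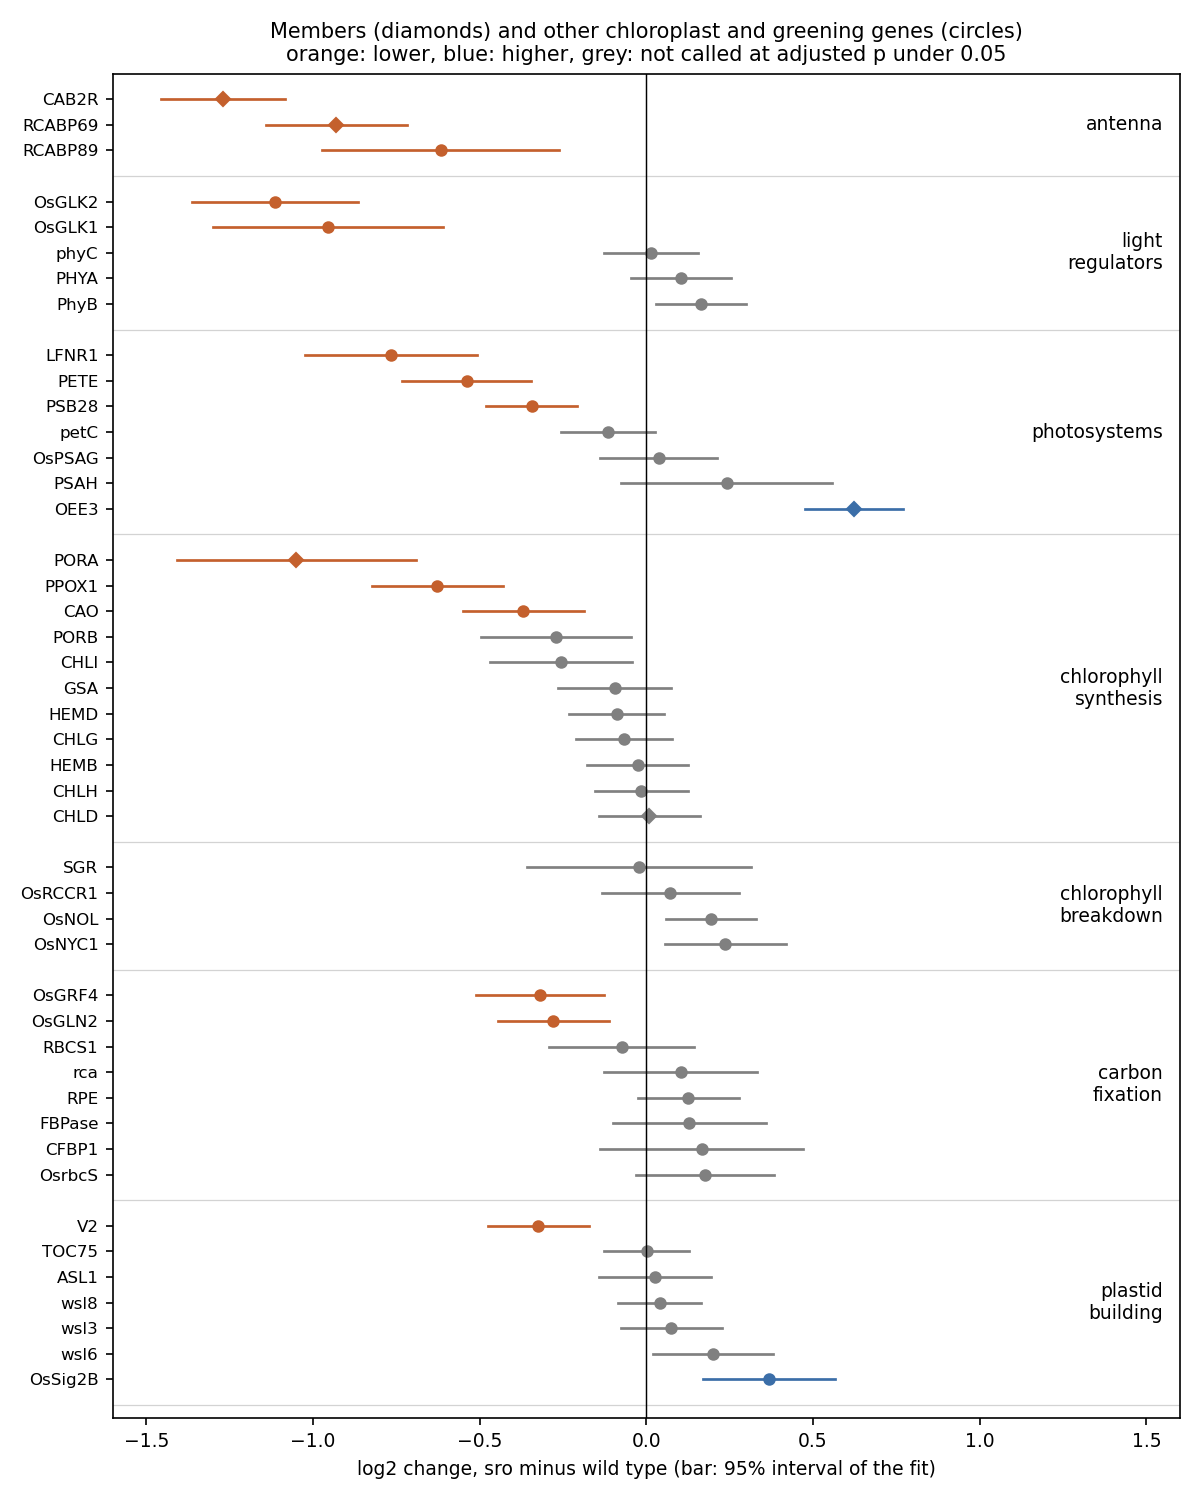
Log2 change of sro against wild type with its 95% interval for the 5 members (diamonds, CAB2R by its brighter probe set) and the 40 other genes of the 7 lists (circles). Genes called lower are orange, called higher blue and not called grey. The antenna genes, both GLK genes and PORA are lower by 0.62 to 1.27, though a signal from target is not shown for RCABP69. LFNR1 of the photosystem list and PPOX1 of the synthesis list, with changes of -0.77 and -0.63, lie in the same range. Most genes of synthesis, breakdown, carbon fixation and plastid building lie near 0.

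Across single arrays the members did not share a common order within a genotype. In wild type, PORA was lowest in replicate 1, by 0.38 below its mean, while both CAB2R probe sets stayed within 0.05 of their means on every wild-type array. OsGLK1 was also lowest in wild type replicate 1, by 0.38, and OsGLK2 in replicate 2, by 0.19. In sro, the fall of the brighter CAB2R probe set was 1.35, 1.36 and 1.11 in replicates 1, 2 and 3, and that of PORA 0.92, 1.14 and 1.09.

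**Figure D4:**
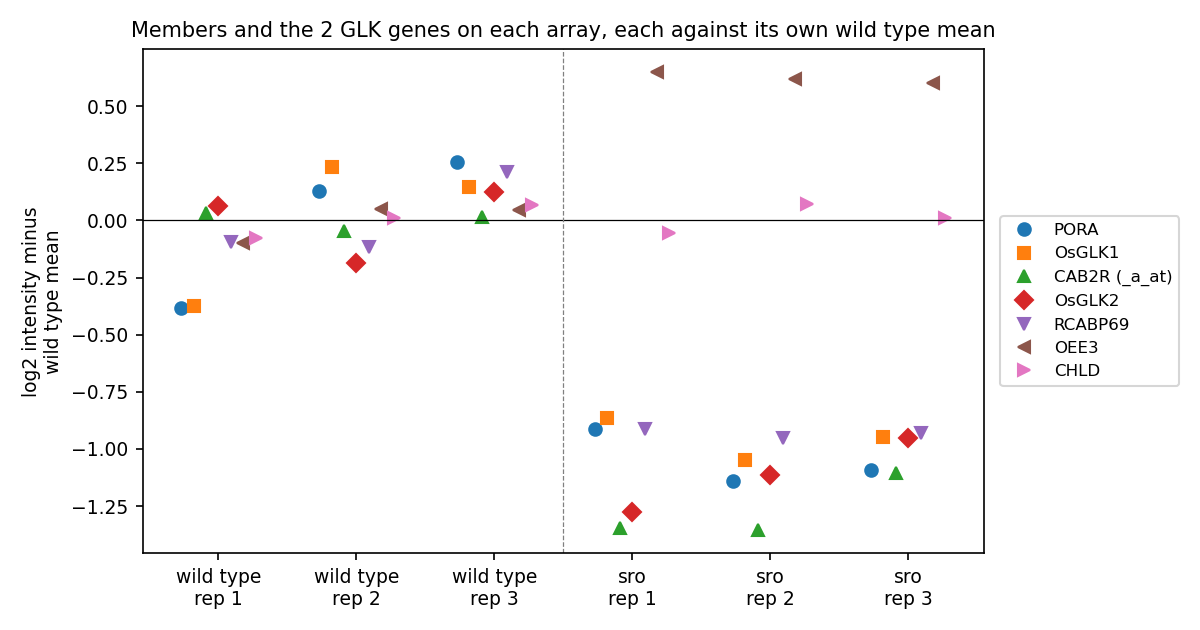
Log2 intensity minus the wild-type mean of the same probe set, on each of the 6 arrays, for the members (CAB2R by its brighter probe set) and the GLK genes. On every sro array PORA, CAB2R, RCABP69, OsGLK1 and OsGLK2 lie 0.87 to 1.36 below their wild-type means and OEE3 lies 0.60 to 0.65 above its mean.

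Among genes with a symbol other than a locus number, those with the pattern most like each member were found by Pearson's r over the 6 arrays, which here is set mainly by the genotype difference and is a description. For PORA the nearest was OsGLK1 (r = 0.992), followed by KRP6, a CDK inhibitor gene, and FTIP1 (r = 0.992 and 0.99). For the brighter CAB2R probe set they were the mitotic cyclin gene CYCB2 (LOC4342121), the expansin gene EXPB7 and OsVDAC6 (r = 0.997, 0.996 and 0.996). For the other CAB2R probe set they were AARE2, APR-like1 and OsZHD2 (r = 0.991, 0.989 and 0.989), so the 2 probe sets of the gene shared none of their 3 nearest genes. For RCABP69 they were osysl9, MSRA5 and KCH1 (r = 0.995, 0.994 and 0.994). For OEE3 they were OsTPP7, a trehalose phosphate phosphatase gene, the jasmonate repressor gene JAZ9 and the kinase gene OsSAPK9 (r = 0.999 for each). These rose by 3.46, 2.47 and 0.75 on the log2 scale, against 0.62 for OEE3. For CHLD the highest r was 0.821, with ETR4, whose own change was not called (adjusted p = 0.585).

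Other measures also moved with genotype. Of 4 genes for anther products, 3 rose, which is 75% called against 26.6% over all genes. The summed linear level of the 4 was 142 to 494 on the wild-type arrays and 1383 to 1506 on the sro arrays. RTS, expressed in the tapetum, went from 4.31 ± 0.18, below the fungal level on all 3 wild-type arrays, to 7.99 ± 0.05. OsC6, a lipid transfer protein gene of the tapetum, went from 4.61 ± 0.31, below that level on 1 wild-type array and on average, to 9.04 ± 0.18. No marker of the list averaged below the fungal level in sro. Of 21 inflorescence markers, 5 rose, 2 fell and 14 were not called, which is 33.3% called against 26.6% over all genes. Their summed levels were 44380 to 46054 in wild type and 47548 to 48586 in sro. Those that rose were OsMADS2, OsMADS4, OsMADS16, OsMADS34 and OsMADS58. Their log2 changes were 0.22, 0.27, 0.39, 0.27 and 0.49 (adjusted p from 0.0229 to 0.0369). Those that fell were LAX1, required for axillary meristems, and OsG1L6. LAX1 read 10.07, 8.32 and 9.51 in wild type and 7.30, 7.43 and 7.24 in sro, a log2 change of -1.98 (adjusted p = 0.0107), further down than that of any member, and OsG1L6 fell by 0.43 (adjusted p = 0.00779). FZP and G1L9, of that list, averaged below the fungal level in both genotypes. OsMADS14 and OsMADS15 count as not called by their brightest probe sets. A dimmer OsMADS14 probe set rose by 0.39 (adjusted p = 0.00668), and a dimmer OsMADS15 probe set fell by 0.29 (adjusted p = 0.0175). The other dimmer probe sets of these genes were not called. The 3 antenna genes had summed levels of 601 to 697 in wild type and 335 to 346 in sro. The part of these marker levels in the changes of the members was not tested.

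Controls of labelling and RNA quality differed as well. The dap spike, at its 5 prime end, read 7.59, 7.55 and 7.77 in wild type and 10.31, 7.95 and 9.48 in sro (p = 0.1 in a two-sided exact permutation test, which with 3 arrays a group cannot go lower). The 3 prime minus 5 prime difference of that spike read 4.33, 4.27 and 4.18 in wild type and 1.70, 4.17 and 2.58 in sro (exact permutation p = 0.1). The 3 prime minus 5 prime difference of rice actin read 5.13, 5.24 and 5.17 in wild type and 4.46, 4.94 and 4.90 in sro, and that of rice GAPDH read 1.64, 1.66 and 1.65 in wild type and 1.29, 1.63 and 1.37 in sro. Neither overlapped between the genotypes (exact permutation p = 0.1 for each), and their part in the changes of the members was not tested. A further setting kept sro replicate 2, whose dap spike and GAPDH values were the nearest to wild type, as the only sro array. The changes were -1.36 and -1.14 for the CAB2R probe sets, -0.95 for RCABP69, 0.62 for OEE3, -1.14 for PORA and 0.07 for CHLD. That array is also part of the means over all arrays, and it still lay outside the wild-type values for dap, actin and GAPDH. The setting therefore cannot separate the members' changes from these controls. Its fit takes the lone array to vary like the wild-type arrays.

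**Figure D5:**
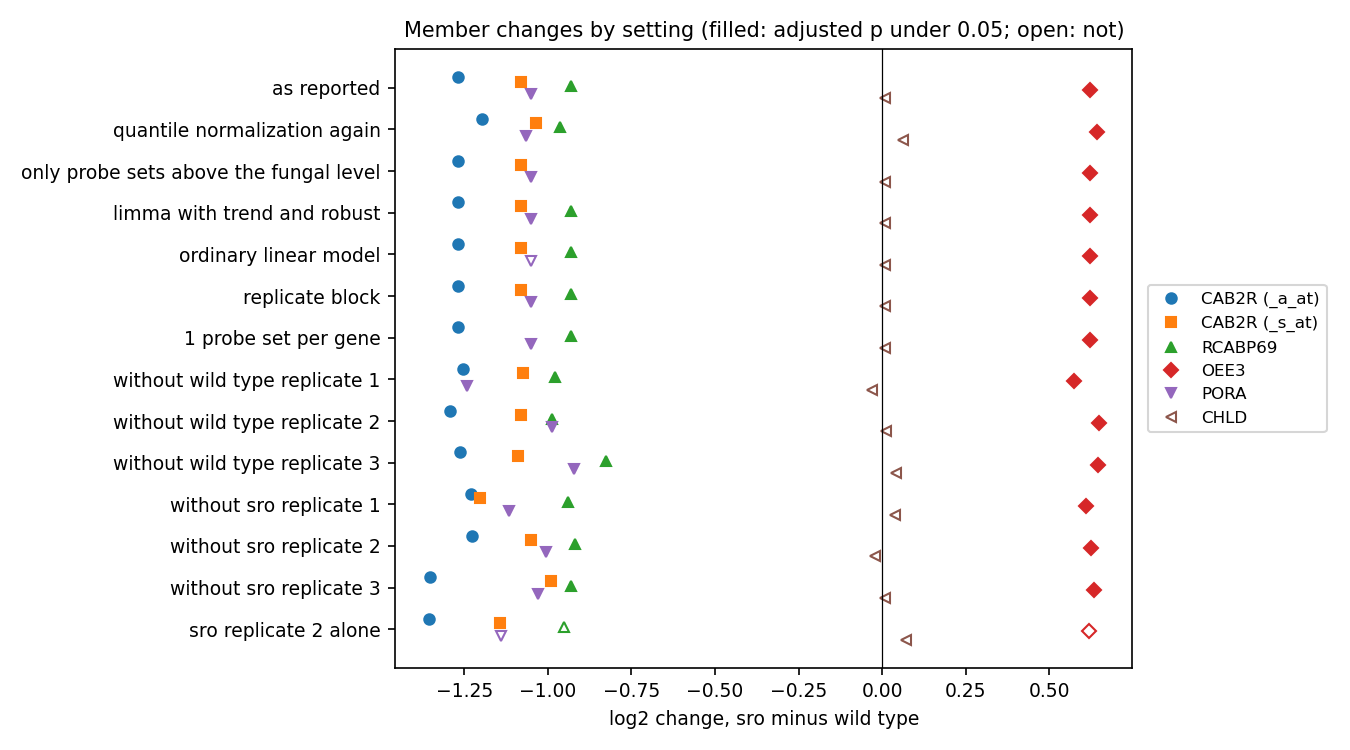
Log2 change of each member probe set as reported and under 13 other settings, filled where the adjusted p was under 0.05 and open where it was not. Each called member stays on its side of 0 in every setting, between -1.36 and -0.83 for those lower in sro and between 0.57 and 0.65 for OEE3. Settings that alter only the test or the probe sets kept share the same log2 change. As the groups of these members do not overlap, leaving out arrays could not move them across 0.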

How the data were processed

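The deposited values are log2 intensities per probe set, 1 column per array, made by the authors from 500 ng of total RNA per sample on Affymetrix rice arrays, per the labels' protocols. The submitters' processing notes name RMA and Partek, with no version or role. The log2 scale was inferred from the values. The sources used here give neither RMA settings nor detection calls nor scan dates, and nothing says whether replicate numbers mark a shared day.

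Values were used as deposited. The 123 AFFX controls were left out and 57258 of 57381 probe sets tested with limma 3.58.1 in R 4.3.3 (lmFit and eBayes, no covariates, two-sided, Benjamini-Hochberg over all probe sets). Precision is limited by the number of arrays. Of the probe sets tested, 22436 had 1 gene in GEO's platform annotation, 95 had several and were not named, and 34727 had none listed. All 17905 genes matched RefSeq of the assembly ASM3414082v1, used for names and chromosomes only. The mean of 10 fungal control probe sets per array was the level without target. These probe set means ran from 3.66 to 5.88.

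The members and lists were chosen with earlier results of these data known. Lists are patterns over symbols and synonyms, so genes with only a locus number are not in them. The genes named are the members, the called genes and up to 6 with the smallest p of each chloroplast and greening list, the 4 brightest inflorescence markers, 2 anther products, and the 3 genes most like each member among 747 probe sets above the fungal level that ranged over at least 0.5. Probe sets other than the brightest of CHLH, OsGLK2, OsNOL, rca, CFBP1, OsrbcS, OsMADS14 and OsMADS15 were added after their values were seen. So were LAX1, OsG1L6, FZP, G1L9 and the inflorescence markers that rose. On simulated arrays with the spread of these, 87 of 100 probe sets shifted by 1 log2 unit and 99 of 100 shifted by 2 were recovered, with 6 false calls. Only those probe sets were shifted, and the noise of each was drawn independently. In the data 14.6% of probe sets were called, so these rates need not hold for them. Promoter motifs were not analysed here. Same-numbered arrays did not deviate together (correlations of -0.02, -0.03 and 0.00). Python 3.11.15 with pandas 2.3.3, scipy 1.17.1 and matplotlib 3.10.9 was used for tables and figures.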

Additional observations from a re-analysis of the deposited data

How the results depend on the processing

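With 6 arrays and no detection calls, small changes and dim probe sets are the least certain. No result changed direction past the threshold under any of the 13 other settings, and both CAB2R probe sets were called in all of those that held them. For the called members the direction was largely fixed in advance. Settings that alter only the test or the probe sets kept leave the log2 change as it is. As the groups of these members did not overlap, leaving out arrays could not reverse their changes. RCABP69 is not above the fungal level on average and the dimmer CAB2R probe set is not the brightest of its gene, so each is missing from 1 setting. With 1 array left out, the changes ran from -1.35 to -1.23 and from -1.20 to -0.99 for the CAB2R probe sets, -0.99 to -0.83 for RCABP69, 0.57 to 0.65 for OEE3 and -1.24 to -0.92 for PORA, all called, and from -0.03 to 0.04 for CHLD, not called. PORA missed the threshold in an ordinary linear model (-1.05, adjusted p = 0.0643). With sro replicate 2 as the only sro array, RCABP69 (-0.95), OEE3 (0.62) and PORA (-1.14) missed it, a setting with fewer samples.

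The count of called probe sets was 8377, 4965 in an ordinary linear model, 668 with sro replicate 2 alone, and 4589 to 7907 with 1 array left out. Leaving out wild type replicate 3 gave 5253, leaving out sro replicate 1 gave 5030, and leaving out sro replicate 3 gave 4589. With the replicate number as a block it was 6315, and the block changed no call of a member. Called genes under the replicate block fell from 2 to 0 for carbon fixation, from 2 to 1 for plastid building and from 7 to 4 for inflorescence markers. Nothing in the labels says that the numbers pair samples.

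In an ordinary linear model the called genes numbered 0 for antenna, 1 for chlorophyll synthesis, 1 for breakdown, 0 for carbon fixation, 1 for plastid building, 1 for light regulators and 4 for inflorescence markers. With sro replicate 2 alone they numbered 0 for antenna, photosystems, synthesis, carbon fixation, plastid building and inflorescence markers, and 1 for light regulators. After another quantile normalization they numbered 0 for antenna, 1 for breakdown and 1 for carbon fixation. Breakdown had 1 call with only probe sets above the fungal level, 2 with a variance trend and 2 with 1 probe set per gene, where inflorescence markers had 11. With 1 array left out, calls ranged from 0 to 1 for antenna, 3 to 3 for photosystems, 1 to 3 for synthesis, 0 to 1 for breakdown, 0 to 1 for carbon fixation, 0 to 2 for plastid building, 2 to 2 for light regulators, 2 to 6 for inflorescence markers and 3 to 4 for anther products. Apart from the settings' own construction, the cause of these changes was not tested.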
